A study of Mus musculus with 60 samples.

Results

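Transcripts of 38 genes of glycolysis, lactate handling, pyruvate entry into mitochondria and the citrate cycle were measured in the mouse dentate gyrus (DG), the hippocampal region in which new neurons are made in adult life. The 38 genes were chosen by name out of 46480 genes in the count tables. All 38 were found, and all 38 were among the 17040 genes whose counts exceeded 10 in 2 or more samples. By role they were 3 genes of glucose uptake and phosphorylation, 8 of upper glycolysis, 5 of lower glycolysis, 5 of lactate dehydrogenase and monocarboxylate transport, 8 of pyruvate entry and 9 of the citrate cycle. RNA-Seq was done on whole-tissue punches of dorsal and ventral DG from male C57BL6J mice aged 80 days, weaned on day 22 and then kept for 8 weeks in standard housing (SH) or in an enriched environment (EE), a large cage with many companions, running wheels and toys that were exchanged. Each sample was pooled from several mice, and the dorsal and ventral samples with the same number came from the same pool. No genotype or drug differed between groups. The values below are from 18 samples of 9 pools: SH gave 4 samples of each region and EE gave 5, and SH replicate 3 was left out in both regions. In that pool *Xist*, which is expressed from an inactive X chromosome in females, was at 34.4 CPM dorsally and 12.1 CPM ventrally, and in the other 18 samples at 0 to 0.657 CPM.

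Glycolysis splits glucose into pyruvate in the cytosol. Lactate dehydrogenase converts pyruvate to lactate and back, monocarboxylate transporters move lactate across membranes, and pyruvate that enters mitochondria is turned by the pyruvate dehydrogenase complex into acetyl-CoA, which the citrate cycle oxidizes. In the brain several steps exist as isozymes that differ between cell types: *Eno2* encodes the neuronal enolase and *Eno1* the ubiquitous one, *Slc16a7* encodes MCT2, the high-affinity lactate transporter of neurons, and *Slc16a1* encodes MCT1, which glia and vessels use. The comparisons ask which of these genes differ between the dorsal and ventral poles of the DG, and which respond to housing.

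The libraries held 22919364 to 28301861 fragments on genes (median 25816352.5). All 5 granule neuron markers (*Prox1*, *Dsp*, *C1ql2*, *Calb1*, *Lct*) were expressed in both regions, and all 5 were higher in dorsal DG, where their summed level was 991 to 1181 CPM (counts divided by the library size after TMM scaling, which evens out differences in composition) against 442 to 660.2 CPM in ventral DG. The study names *Lct* among genes already reported as higher in dorsal granule cells, so its direction was known beforehand, and it is part of these sums. All 6 choroid plexus markers were higher in ventral DG, with a summed level of 364 to 1366 CPM against 8.18 to 183 CPM in dorsal DG. The 183 CPM was dorsal SH replicate 1, and the other dorsal samples were at or below 51.7 CPM. Of 7 astrocyte markers, 4 were lower in dorsal DG, and the sums overlapped, at 1781 to 2109 CPM against 1988 to 2554 CPM. Markers of habenula and thalamus summed to 83.1 to 119 CPM dorsally and 23.3 to 30.3 CPM ventrally, and 3 of the 4 were higher in dorsal DG. Hilar mossy cell markers summed to 13.0 to 27.1 CPM dorsally and 59.7 to 103 CPM ventrally, and 1 of the 3, *Calb2*, was lower in dorsal DG. Of the other lists, 2 of 4 CA pyramidal markers were higher and 2 lower in dorsal DG, 1 of 6 inhibitory neuron markers was higher and 3 were lower, 2 of 6 oligodendrocyte markers were higher, 1 of 5 microglial markers was lower and none of 6 endothelial markers was called. The part of these cell types in the differences below was not tested. Without SH replicate 1 the number of members called between regions, 24, did not change. The median log2 difference (dorsal minus ventral) over the members was then -0.14, and -0.16 in the main fit. Choroid plexus sums stayed higher in ventral than in dorsal DG without that pool, so this fit does not test their part. In such bulk samples fewer cells of a type cannot be told apart from less RNA per cell.

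**Figure D1:**
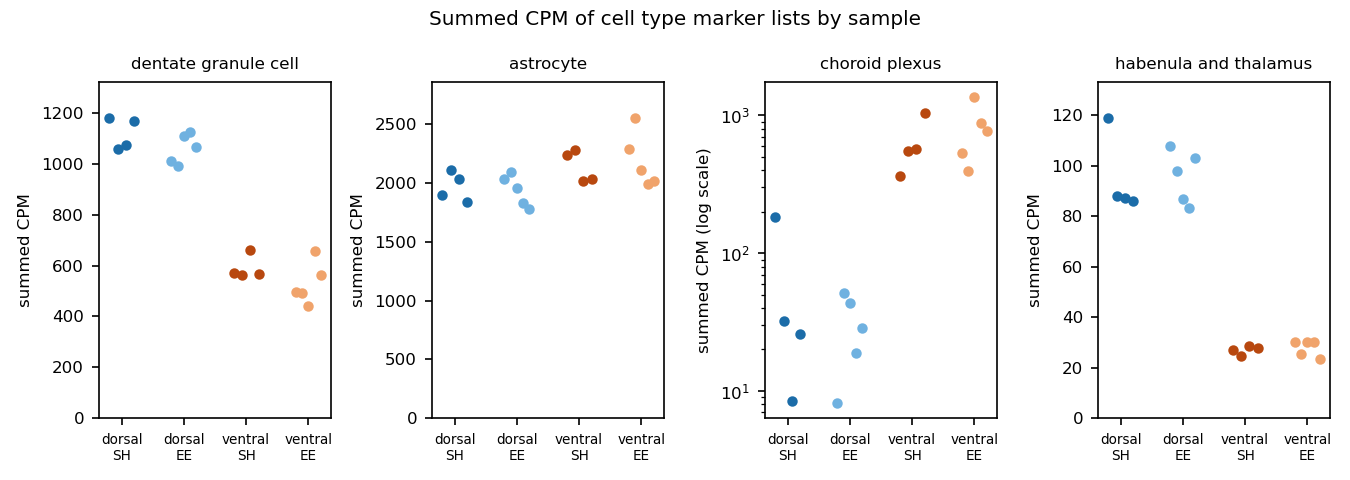
Summed CPM (y axis, on a log scale for choroid plexus) of 4 marker lists, with 1 point per sample and the 4 groups on the x axis. Granule neuron sums lay higher in dorsal DG, choroid plexus sums lay higher in ventral DG, and astrocyte sums overlapped.

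On counts with TMM scaling, most of the pathway was lower in dorsal than in ventral DG, which was not so on the unscaled TPM scale described below. At a false discovery rate (FDR, the Benjamini-Hochberg adjusted p of edgeR's quasi-likelihood test over all genes tested) under 0.05, 21 of the 38 members were lower in dorsal DG, 3 were higher (*Slc16a7*, *Eno2* and *Pfkfb2*) and 14 were not called. Over all genes tested, 58.4% were called, 29.3% lower and 29.0% higher in dorsal DG. The share called was thus similar for members and for all genes, and the split of directions differed in count. The median log2 difference (dorsal minus ventral) was -0.16 over the members and -0.005 over all genes tested, and 33 of 38 members had a negative value. On the deposited TPM scale, where 4 small structural RNAs (*Rn7s1*, *Rn7s2*, *Rn7sk*, *Rny1*) took 52.6% to 67.8% of each library's total, only 2 members were called (*Slc16a7* and *Mpc2*), the member median was 0.018 beside 0.090 over all genes, and *Gapdh*, *Pdhb*, *Idh3b* and *Fh1* changed sign. With the TPM values rescaled by TMM, an alternative chosen after seeing the data, 23 members were called and the member median was -0.16.

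The size of the differences was modest. With a fold change of at least 20% as a further condition, 10 members were lower and 1 was higher in dorsal DG, beside 16.8% and 15.9% of all genes tested. In 10 members every dorsal sample lay below every ventral sample (*Hk2*, *Gpi1*, *Tpi1*, *Pgam1*, *Slc16a1*, *Pdk1*, *Pdk2*, *Pdk4*, *Idh3b*, *Suclg1*), which held for 9.44% of all genes tested. In 1 member, *Slc16a7*, every dorsal sample lay above every ventral sample, which held for 9.51% of genes. The pattern was present in SH and in EE mice, which came from separate pools. In SH, 22 members were called (41.7% of all genes), and in EE, 23 were called (46.5% of all genes). All 22 members called in SH had the same direction in EE, and 21 of them were also called there. Over all genes, 7035 of the 7103 called in SH had the same direction in EE, and 5996 were called in both with one direction.

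**Figure D2:**
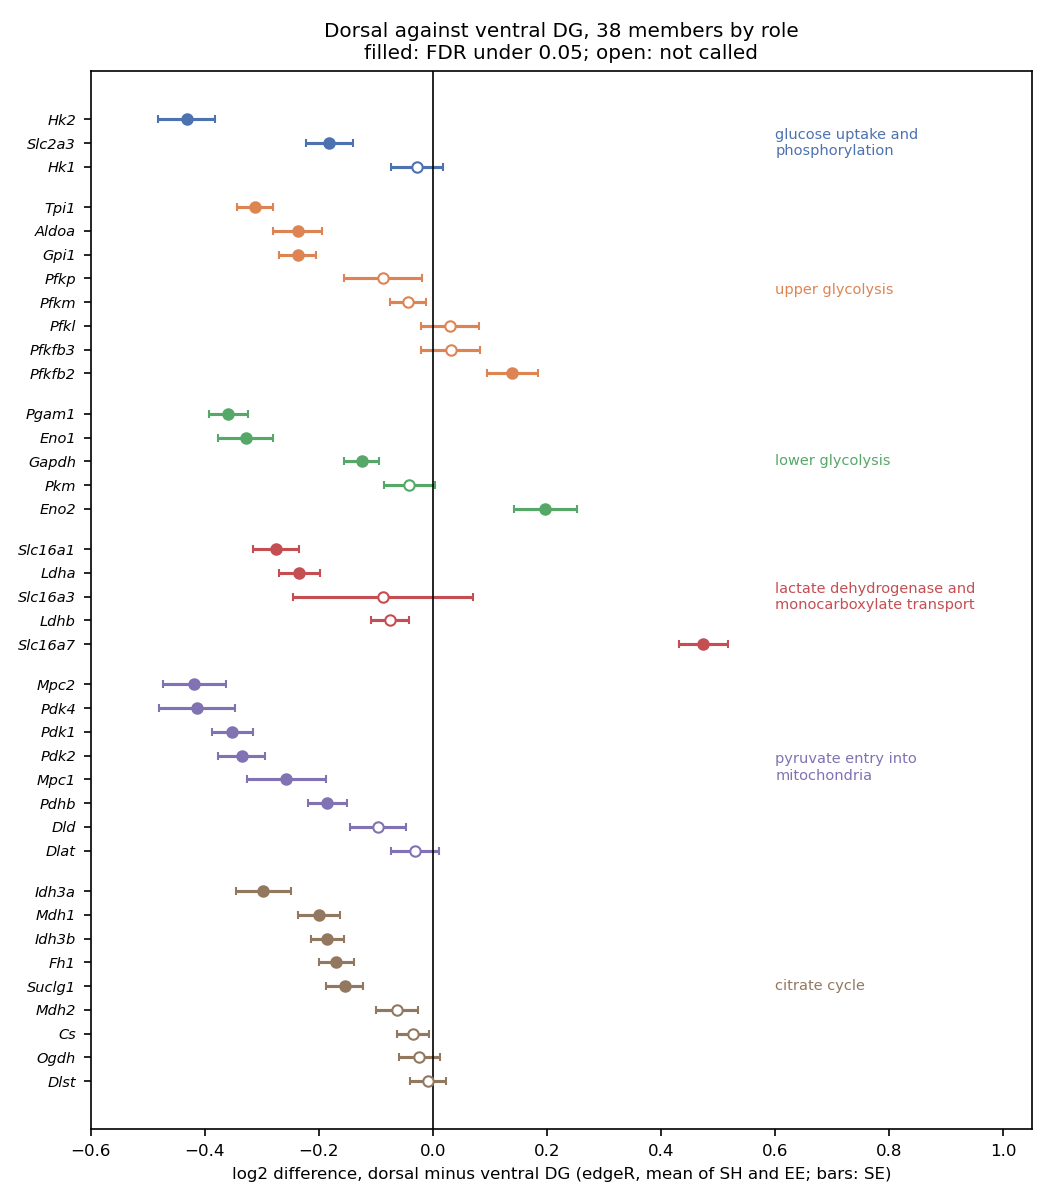
Log2 difference between dorsal and ventral DG (x axis, points with SE bars, mean of SH and EE) for the 38 members, grouped and coloured by role. Filled points passed FDR under 0.05. Most lie left of 0, and *Slc16a7* (0.47), *Eno2* (0.20) and *Pfkfb2* (0.14) are the filled points to the right.

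Glucose uptake and phosphorylation had 2 of 3 members lower in dorsal DG. *Hk2* encodes hexokinase 2, the inducible form that traps glucose as glucose 6-phosphate. Its dorsal level was 7.21, 7.32, 7.60 and 6.66 CPM in the 4 SH samples and 6.71 to 7.28 CPM (median 7.25) in the 5 EE samples. Its ventral level was 9.18, 9.81, 9.64 and 8.11 CPM in the 4 SH samples and 9.44 to 10.8 CPM (median 9.78) in the 5 EE samples. No dorsal sample reached the lowest ventral one, and the log2 difference was -0.43 ± 0.050 (SE), edgeR FDR 1.65e-07. *Hk1* encodes the main hexokinase of brain. The dorsal values of *Hk1* were 363, 302, 335 and 335 CPM in the 4 SH samples and 299 to 337 CPM (median 335) in the 5 EE samples. The ventral values were 314, 325, 339 and 373 CPM in the 4 SH samples and 294 to 353 CPM (median 335) in the 5 EE samples. The regions overlapped, and the log2 difference was -0.028 ± 0.045 (SE), edgeR FDR 0.619. Hexokinase 1 transcripts far outnumbered hexokinase 2 transcripts per length. The ratio of *Hk1* to *Hk2* TPM within a sample, which does not depend on the scaling of the library, was 30.5 to 49.5 (median 39.9) in dorsal and 24.7 to 43.6 (median 29.9) in ventral DG, and it was higher in the dorsal sample of 8 of 9 pools. The ranges overlapped. *Slc2a3*, the neuronal glucose transporter GLUT3, held 128 ± 6.69 CPM dorsally and 145 ± 11.0 CPM ventrally (SD, n = 9 samples each), with a log2 difference of -0.18 ± 0.041 (SE), edgeR FDR 0.000647, and was lower in the dorsal sample of 9 of 9 pools. This direction is opposite to that of *Eno2* and *Slc16a7* below, so the members described here as neuronal forms did not share a direction.

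In upper glycolysis, 3 of 8 members were lower and 1 was higher in dorsal DG. Triose phosphate isomerase, encoded by *Tpi1*, balances the 2 triose phosphates that aldolase makes. Dorsal tissue gave 476, 502, 491 and 498 CPM in the 4 SH samples and 489 to 548 CPM (median 505) in the 5 EE samples for *Tpi1*. Ventral tissue gave 637, 604, 626 and 609 CPM in the 4 SH samples and 606 to 654 CPM (median 622) in the 5 EE samples. The highest dorsal value lay below the lowest ventral value, and the log2 difference was -0.31 ± 0.032 (SE), edgeR FDR 2.2e-08. Aldolase A and glucose phosphate isomerase moved the same way, with *Aldoa* (-0.24, FDR 7.45e-05) and *Gpi1* (-0.24, FDR 2.21e-06) as log2 differences. At the committed step of the pathway, no phosphofructokinase gene was called. For *Pfkl*, the liver-type form, dorsal samples held 264, 219.8, 249 and 256 CPM in the 4 SH samples and 244 to 270.0 CPM (median 253) in the 5 EE samples. Ventral values of *Pfkl* were 232, 230.0, 269 and 282 CPM in the 4 SH samples and 204 to 262 CPM (median 248) in the 5 EE samples, with a log2 difference of 0.030 ± 0.051 (SE), edgeR FDR 0.636, and the regions overlapped. For *Pfkm*, the muscle-type form, dorsal samples held 315, 292, 309 and 306 CPM in the 4 SH samples and 296 to 313 CPM (median 308) in the 5 EE samples. Ventral values of *Pfkm* were 306, 306, 324 and 334 CPM in the 4 SH samples and 295 to 323 CPM (median 317) in the 5 EE samples, with a log2 difference of -0.044 ± 0.031 (SE), edgeR FDR 0.242, and again the regions overlapped. For *Pfkp*, the platelet-type form, dorsal samples held 164, 136, 160.3 and 161 CPM in the 4 SH samples and 159 to 182 CPM (median 173) in the 5 EE samples. Ventral values of *Pfkp* were 147, 156, 186 and 196 CPM in the 4 SH samples and 133 to 195 CPM (median 188) in the 5 EE samples, with a log2 difference of -0.088 ± 0.068 (SE), edgeR FDR 0.279, and dorsal SH replicate 2 was its lowest dorsal sample. Their within-sample TPM ratios had no common direction, since *Pfkm* to *Pfkp* was higher in the dorsal sample of 6 of 9 pools and *Pfkm* to *Pfkl* in 3 of 9. *Pfkfb2* and *Pfkfb3* encode enzymes that make and break fructose 2,6-bisphosphate, the activator of phosphofructokinase. *Pfkfb2* held 15.5 ± 0.708 CPM dorsally and 14.1 ± 1.03 CPM ventrally (SD, n = 9 samples each) with a log2 difference of 0.14 ± 0.045 (SE), edgeR FDR 0.0109. Its expected count, in which fragments that map to several places are shared out, was on average 1.78 times its count, and with expected counts the difference was 0.067 (edgeR FDR 0.119), which ends the call. *Pfkfb3* was not called (log2 difference 0.032 ± 0.052 (SE), edgeR FDR 0.623).

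Lower glycolysis held a pair of enolase genes that moved in opposite directions. *Eno1* encodes the ubiquitous enolase. In dorsal DG *Eno1* held 447, 394, 427 and 439.7 CPM in the 4 SH samples and 411 to 445 CPM (median 425) in the 5 EE samples. In ventral DG it held 502, 506, 568 and 583 CPM in the 4 SH samples and 446 to 583 CPM (median 561) in the 5 EE samples. Dorsal samples were the lower ones in 9 of 9 pools, although ventral EE replicate 2 reached into the dorsal range, and the log2 difference was -0.33 ± 0.048 (SE), edgeR FDR 4.81e-06. *Eno2* encodes the neuronal enolase. Its dorsal level was 642, 566, 619 and 655 CPM in the 4 SH samples and 637 to 721 CPM (median 666) in the 5 EE samples. Its ventral level was 496, 518, 608 and 609 CPM in the 4 SH samples and 474 to 629.8 CPM (median 600.4) in the 5 EE samples. Dorsal samples were the higher ones in 9 of 9 pools, with overlapping ranges, and the log2 difference was 0.20 ± 0.056 (SE), edgeR FDR 0.00436. Within SH alone *Eno2* was not called (log2 difference 0.15, edgeR FDR 0.143), and within EE it was (0.24, FDR 0.011).

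The *Eno1* to *Eno2* ratio of TPM within a sample separated the regions with little spread. It was 1.07, 1.08, 1.02 and 1.02 in the dorsal SH samples and 1.02, 1.02, 0.965, 0.969 and 0.959 in the dorsal EE samples. It was 1.56, 1.53, 1.43 and 1.48 in the ventral SH samples and 1.53, 1.48, 1.43, 1.37 and 1.40 in the ventral EE samples. By TPM, both enolases were thus about equally abundant per length in dorsal DG, and *Eno1* was the more abundant one in every ventral sample. TPM here includes fragments that map to several places and are shared out. The expected count was on average 1.27 times the count for *Eno1* and 0.956 times for *Eno2*. The level of the ratio, and so the near equality in dorsal DG, depends on this sharing. The log2 of the ratio was lower in the dorsal than in the ventral sample of the same pool by a mean difference of -0.53 with an SD of 0.034 over the 9 pools, so the spread between pools was small beside the difference. The ratio cannot be moved by library scaling, since both genes come from the same sample. *Eno2* lies at chr6:124760053-124769673 and *Tpi1* at chr6:124810586-124814296 (mm10, Gencode), 40.9 kb apart, and these neighbours differed in opposite directions between the regions. *Eno1* is on another chromosome (chr4:150236721-150248879).

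Phosphoglycerate mutase, *Pgam1*, was the member of lower glycolysis with the largest difference. The dorsal values of *Pgam1* were 113, 113, 117 and 119 CPM in the 4 SH samples and 112 to 131 CPM (median 119) in the 5 EE samples. The ventral values were 145, 144, 159 and 149 CPM in the 4 SH samples and 147 to 158 CPM (median 155) in the 5 EE samples. The regions did not overlap, and the log2 difference was -0.36 ± 0.035 (SE), edgeR FDR 9.44e-09. The expected count of *Pgam1* was on average 3.57 times its uniquely assigned count, so most of its estimated fragments were not uniquely assigned, and its level in CPM is uncertain. For *Eno1* the same ratio was 1.27. *Gapdh*, often used as a reference gene, was lower in dorsal DG as well, at 764 ± 21.0 CPM dorsally and 832 ± 26.7 CPM ventrally (SD, n = 9 samples each) with a log2 difference of -0.12 ± 0.031 (SE), edgeR FDR 0.00151. *Pkm*, which makes pyruvate, was not called, with a log2 difference of -0.041 ± 0.044 (SE), edgeR FDR 0.438.

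Lactate transport held the member with the largest difference in the mean of SH and EE. Within EE alone *Pdk4* (-0.58) and *Hk2* (-0.51) had larger log2 differences in size than *Slc16a7* (0.45). *Slc16a7* encodes MCT2, through which neurons take up lactate. Dorsal tissue gave 27.9, 28.6, 29.1 and 29.0 CPM in the 4 SH samples and 24.7 to 29.9 CPM (median 28.7) in the 5 EE samples for *Slc16a7*. Ventral tissue gave 19.5, 20.1, 21.2 and 20.3 CPM in the 4 SH samples and 18.7 to 22.7 CPM (median 20.7) in the 5 EE samples. Every dorsal sample lay above every ventral sample, and the log2 difference was 0.47 ± 0.042 (SE), edgeR FDR 2.65e-09. *Slc16a1* encodes MCT1. In dorsal DG *Slc16a1* held 49.3, 52.2, 53.8 and 53.9 CPM in the 4 SH samples and 49.1 to 52.8 CPM (median 51.1) in the 5 EE samples. In ventral DG it held 60.0, 66.0, 58.6 and 66.7 CPM in the 4 SH samples and 56.5 to 70.1 CPM (median 59.4) in the 5 EE samples. Here every dorsal sample lay below every ventral sample, with a log2 difference of -0.27 ± 0.041 (SE), edgeR FDR 5.08e-06. The direction and the call held for *Slc16a7* in all 20 alternative fits, TPM included.

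The *Slc16a1* to *Slc16a7* ratio of TPM was therefore lower in dorsal DG. It was 1.43, 1.45, 1.47 and 1.49 in the dorsal SH samples and 1.30 to 1.67 (median 1.43) over all dorsal samples. It was 2.28, 2.57, 2.17 and 2.50 in the ventral SH samples and 1.87 to 2.68 (median 2.28) over all ventral samples, so the ranges did not overlap. In 9 of 9 pools the dorsal sample had the lower ratio. *Slc16a3*, which encodes MCT4, the exporter of glycolytic cells, was near the detection limit. Its dorsal level was 0.896, 1.44, 1.32 and 1.34 CPM in the 4 SH samples and 0.854 to 1.59 CPM (median 1.19) in the 5 EE samples. Its ventral level was 1.201, 0.751, 1.46 and 1.13 CPM in the 4 SH samples and 1.13 to 2.04 CPM (median 1.36) in the 5 EE samples. The regions overlapped, and *Slc16a3* was not called (log2 difference -0.087 ± 0.158 (SE), edgeR FDR 0.661).

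Of the lactate dehydrogenase genes, *Ldha* encodes the subunit that favours lactate formation and *Ldhb* the subunit that favours lactate use. In dorsal DG *Ldha* held 178, 185, 199.5 and 202 CPM in the 4 SH samples and 204 to 224 CPM (median 219) in the 5 EE samples. In ventral DG it held 222, 227, 243 and 239 CPM in the 4 SH samples and 231 to 259.5 CPM (median 249) in the 5 EE samples. *Ldha* was lower in the dorsal sample of 9 of 9 pools and had a log2 difference of -0.23 ± 0.036 (SE), edgeR FDR 9.07e-06. In dorsal DG *Ldhb* held 248, 257, 239.6 and 240.2 CPM in the 4 SH samples and 240.5 to 252 CPM (median 249) in the 5 EE samples. In ventral DG it held 261, 269, 246 and 246 CPM in the 4 SH samples and 252 to 289 CPM (median 259) in the 5 EE samples. *Ldhb* was also lower in the dorsal sample of 9 of 9 pools, and missed the threshold with a log2 difference of -0.075 ± 0.034 (SE), edgeR FDR 0.0593. With the pool as a block the adjusted p of *Ldhb* was 0.0273 by edgeR, which makes the call. The *Ldha* to *Ldhb* ratio of TPM was 0.385 to 0.515 (median 0.464) in dorsal and 0.433 to 0.594 (median 0.499) in ventral DG, lower in the dorsal sample of 8 of 9 pools and with overlapping ranges.

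**Figure D3:**
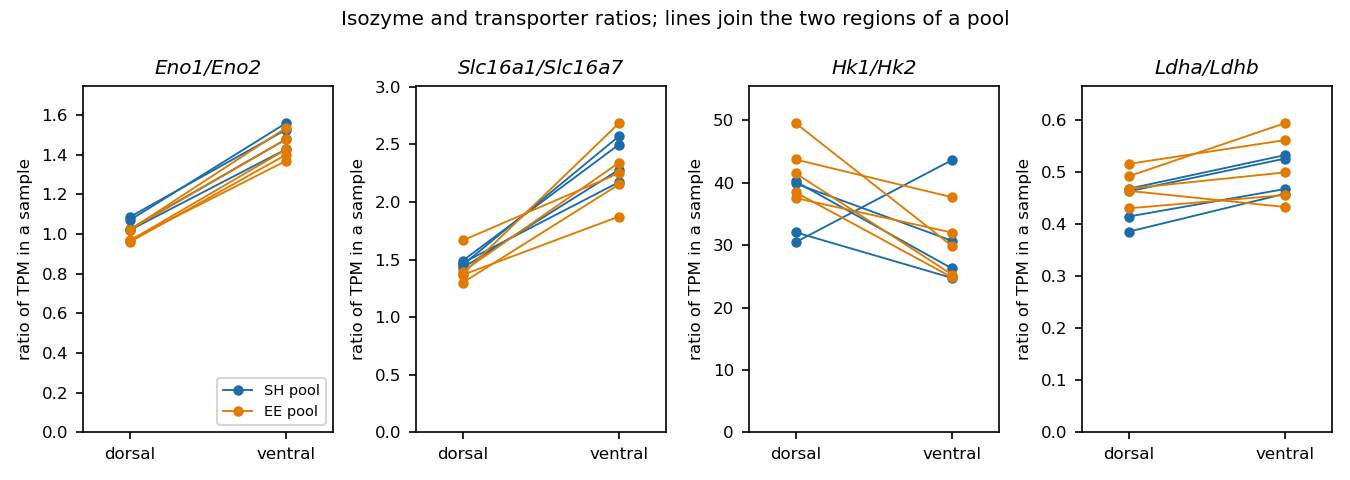
Ratio of TPM (y axis) for *Eno1* to *Eno2*, *Slc16a1* to *Slc16a7*, *Hk1* to *Hk2* and *Ldha* to *Ldhb*, with 1 line per pool joining its dorsal and ventral sample. The lines of the enolase and transporter pairs all rise from dorsal to ventral without overlap, and those of the other pairs overlap.

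**Figure D4:**
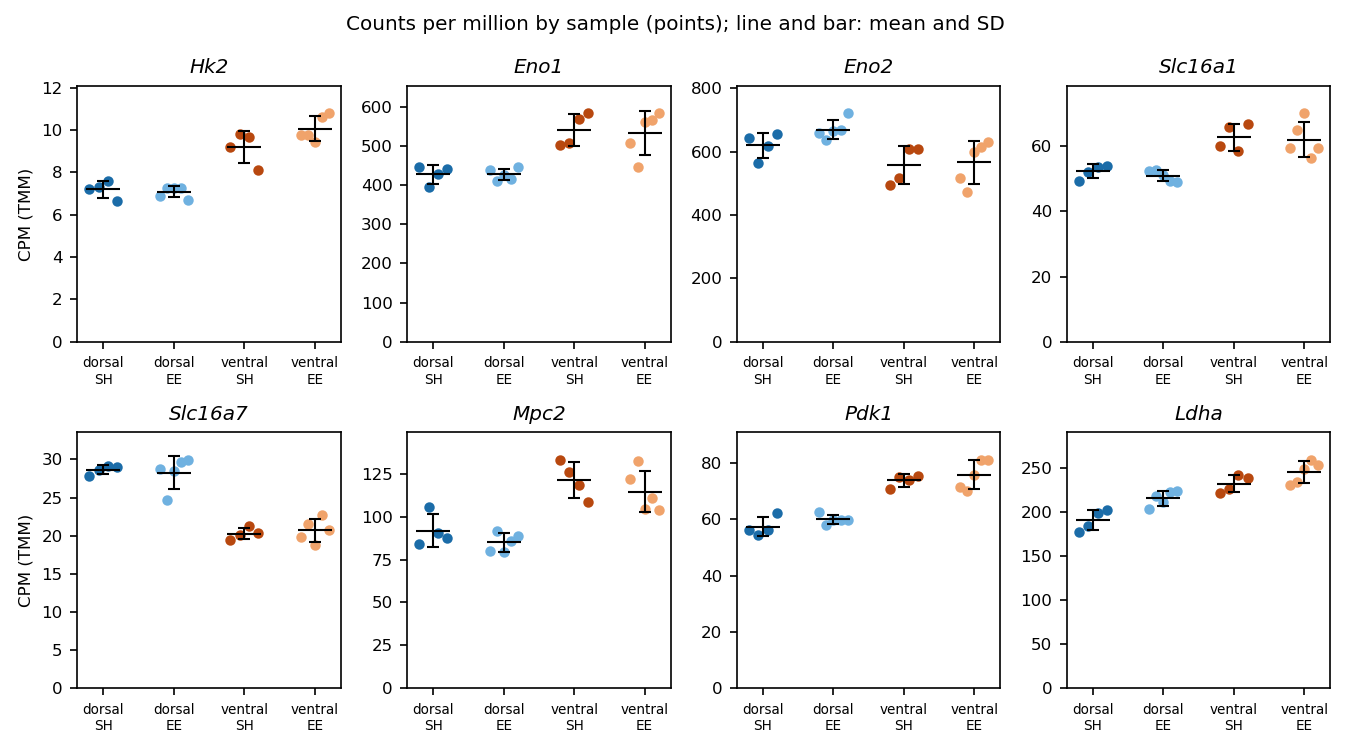
CPM after TMM scaling (y axis from 0) of 8 members, with 1 point per sample in the 4 groups (x axis) and lines for mean and SD. *Slc16a7* and *Eno2* are the 2 members shown that are higher in dorsal DG, and in *Ldha* the dorsal EE points lie above the dorsal SH points.

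The start regions of the enolase pair, of *Slc16a1* and of *Hk2* are shown because these genes carry the isozyme contrasts. *Slc16a7* had no window in the table. The windows run from 250 bases before to 50 bases after a RefSeq start (GRCm38.p6, the same assembly as mm10), 5′ to 3′ on the strand of the gene. Capitals mark ACGTG, the core of the hypoxia response element bound by HIF proteins, and GCGTG, the other common form of that core, on either strand. CACGTG contains ACGTG on both strands. *Eno1* is at chr4:150236458-150236757, plus strand, *Eno2* at chr6:124769624-124769923, minus strand, *Slc16a1* at chr3:104638414-104638713, plus strand, and *Hk2* at chr6:82774405-82774704, minus strand.
Eno1: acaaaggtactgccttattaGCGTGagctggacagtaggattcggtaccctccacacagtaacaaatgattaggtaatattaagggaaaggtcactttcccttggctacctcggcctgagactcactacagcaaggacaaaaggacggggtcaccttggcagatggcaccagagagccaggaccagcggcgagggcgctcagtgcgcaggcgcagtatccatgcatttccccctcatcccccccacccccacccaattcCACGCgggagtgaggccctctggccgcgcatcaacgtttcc
Eno2: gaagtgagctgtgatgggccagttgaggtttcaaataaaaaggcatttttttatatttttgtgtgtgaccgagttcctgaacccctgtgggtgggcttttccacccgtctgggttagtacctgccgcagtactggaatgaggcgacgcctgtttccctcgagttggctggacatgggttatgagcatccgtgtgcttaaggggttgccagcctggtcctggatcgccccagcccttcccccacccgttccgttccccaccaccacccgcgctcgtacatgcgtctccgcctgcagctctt
Slc16a1: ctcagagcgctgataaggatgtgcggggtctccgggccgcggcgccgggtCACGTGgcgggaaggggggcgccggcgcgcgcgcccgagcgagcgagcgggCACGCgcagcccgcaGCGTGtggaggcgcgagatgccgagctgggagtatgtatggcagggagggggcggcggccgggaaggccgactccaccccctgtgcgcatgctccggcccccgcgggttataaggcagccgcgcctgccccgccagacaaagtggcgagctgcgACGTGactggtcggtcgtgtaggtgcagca
Hk2: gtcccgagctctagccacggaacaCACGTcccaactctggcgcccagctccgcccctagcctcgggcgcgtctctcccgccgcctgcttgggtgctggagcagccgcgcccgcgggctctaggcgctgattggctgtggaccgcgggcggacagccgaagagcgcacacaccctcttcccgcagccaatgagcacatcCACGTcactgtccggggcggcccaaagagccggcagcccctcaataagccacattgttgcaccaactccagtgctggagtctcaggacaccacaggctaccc
The *Eno2* window holds neither motif, the *Eno1* and *Hk2* windows hold 2 stretches each, and the *Slc16a1* window holds 4. *Eno1* has 3 windows in the table, and the one nearest its Gencode start is printed. Windows were present for 35 of the 38 members and for 12072 of the genes tested. ACGTG was found in 16 of 35 members (45.7%) and in 28.1% of all genes tested, GCGTG in 21 of 35 (60%) and in 53.9%, and CACGTG in 7 of 35 (20%) and in 11.2%. Members had more windows per gene (1.60 against 1.28). Among members with a window, ACGTG was in 9 of 19 that were lower in dorsal DG and in 7 of 16 others. These matches describe the letters in the windows and are not binding sites.

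Pyruvate entry into mitochondria had 6 of 8 members lower in dorsal DG and none higher, with a median log2 difference of -0.30. *Mpc1* and *Mpc2* encode the subunits of the mitochondrial pyruvate carrier. The dorsal level of *Mpc2* was 83.8, 106, 90.5 and 87.5 CPM in the 4 SH samples and 79.2 to 91.9 CPM (median 85.6) in the 5 EE samples. Its ventral level was 133, 126, 118 and 109 CPM in the 4 SH samples and 104 to 132 CPM (median 111) in the 5 EE samples. All dorsal samples except SH replicate 2, at 106 CPM, lay below the ventral range, and the log2 difference was -0.42 ± 0.054 (SE), edgeR FDR 9.16e-07. The dorsal values of *Mpc1* were 53.7, 67.6, 59.2 and 54.4 CPM in the 4 SH samples and 53.7 to 67.4 CPM (median 55.7) in the 5 EE samples. The ventral values were 81.1, 73.5, 64.1 and 59.9 CPM in the 4 SH samples and 61.5 to 84.1 CPM (median 64.2) in the 5 EE samples. The regions overlapped in *Mpc1*, with a log2 difference of -0.26 ± 0.070 (SE), edgeR FDR 0.00316. Its expected count was on average 1.79 times its count. Within SH alone it was not called (edgeR FDR 0.0608). The ratio of *Mpc1* to *Mpc2* TPM was higher in the dorsal sample of 9 of 9 pools, at 0.964 to 1.23 (median 1.04) against 0.863 to 1.02 (median 0.894), with ranges that overlapped.

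The pyruvate dehydrogenase kinases, which switch the dehydrogenase complex off by phosphorylation, were lower in dorsal DG in all 3 forms among the members, and all 3 kept a negative value, without a call, on the unscaled TPM scale (-0.15, -0.13 and -0.12 for *Pdk1*, *Pdk2* and *Pdk4*). *Pdk1* is the form induced in low oxygen. Dorsal tissue gave 56.4, 54.6, 56.2 and 62.4 CPM in the 4 SH samples and 58.1 to 62.8 CPM (median 59.7) in the 5 EE samples for *Pdk1*. Ventral tissue gave 70.7, 75.2, 74.0 and 75.5 CPM in the 4 SH samples and 70.1 to 81.2 CPM (median 75.9) in the 5 EE samples. The regions did not overlap and the log2 difference was -0.35 ± 0.036 (SE), edgeR FDR 2.07e-08. *Pdk2* was the most abundant of the 3 per length. In dorsal DG *Pdk2* held 53.1, 52.9, 52.5 and 55.7 CPM in the 4 SH samples and 49.2 to 56.8 CPM (median 52.4) in the 5 EE samples. In ventral DG it held 60.1, 67.2, 66.7 and 73.1 CPM in the 4 SH samples and 59.5 to 71.6 CPM (median 67.3) in the 5 EE samples. Again the regions did not overlap, with a log2 difference of -0.33 ± 0.041 (SE), edgeR FDR 3.69e-07. *Pdk4* is the form induced by fasting and fatty acids. Its dorsal level was 9.79, 10.3, 9.91 and 8.45 CPM in the 4 SH samples and 7.59 to 9.76 CPM (median 8.49) in the 5 EE samples. Its ventral level was 10.8, 12.5, 10.7 and 11.6 CPM in the 4 SH samples and 11.1 to 14.99 CPM (median 12.3) in the 5 EE samples. Its regions did not overlap either, and the log2 difference was -0.41 ± 0.066 (SE), edgeR FDR 1.38e-05. The *Pdk1* to *Pdk2* ratio of TPM overlapped almost completely, at 0.426 to 0.518 (median 0.469) dorsally and 0.421 to 0.529 (median 0.47) ventrally.

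Of the phosphatases that reverse these kinases, *Pdp1* went the other way in every fit described here, and the calls of the others were less stable. All 3 phosphatase genes in the wider pathway list were higher in dorsal DG. They were the catalytic subunits *Pdp1* (0.31, FDR 2.84e-07) and *Pdp2* (0.15, FDR 0.039) and the regulatory subunit *Pdpr* (0.10, FDR 0.0143), given as log2 differences with edgeR FDR. A regulatory subunit does not itself reverse the kinases, and phosphatase activity was not measured. *Pdp1* ranged from 136 to 153 CPM in dorsal and from 108 to 130 CPM in ventral samples, which did not overlap, and the ranges of the other 2 did. *Pdp1* was called in every fit that left out 1 replicate. *Pdp2* was not called without EE replicate 1, 2 or 3 or without SH replicate 1, 2 or 5 (edgeR FDR 0.067 to 0.119), and *Pdpr* was not called without SH replicate 5 (FDR 0.0679). Of the 7 other pyruvate entry genes tested, the 3 phosphatase genes were the higher ones and 2 were lower. Over all genes tested, 29.0% were higher and 29.3% lower. *Pdk3*, the remaining kinase, was not called (-0.075, FDR 0.0829). Of the dehydrogenase complex itself, *Pdhb* (-0.19, FDR 7.29e-05), the beta subunit of the first enzyme, was lower in dorsal DG, as were *Pdha1* (-0.18, FDR 4.93e-05) and *Pdhx* (-0.13, FDR 0.00408) from the wider list. *Dlat* (-0.031, FDR 0.541) and *Dld* (-0.096, FDR 0.0954), its other catalytic components, were not called. *Dld* was lower in the dorsal sample of 9 of 9 pools, and with the pool as a block its adjusted p was 0.00572 by edgeR, which makes the call. It was also called without EE replicate 2 (edgeR FDR 0.0152), the pool that gave its lowest dorsal and its lowest ventral value, 89.3 and 108 CPM.

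In the citrate cycle list, which includes the cytosolic *Mdh1*, 5 of 9 members were lower in dorsal DG, none was higher, and the median log2 difference was -0.15. *Idh3a* and *Idh3b* encode subunits of the NAD-dependent isocitrate dehydrogenase, a rate-setting enzyme of the cycle. The dorsal values of *Idh3a* were 169, 165, 178 and 173 CPM in the 4 SH samples and 145 to 185 CPM (median 176) in the 5 EE samples. The ventral values were 199, 212, 221 and 217 CPM in the 4 SH samples and 175 to 225 CPM (median 217) in the 5 EE samples. Only ventral EE replicate 2, at 175 CPM, lay within the dorsal range, and the log2 difference was -0.30 ± 0.049 (SE), edgeR FDR 1.86e-05. *Idh3b* held 208 ± 8.33 CPM dorsally and 236 ± 4.53 CPM ventrally (SD, n = 9 samples each) without overlap, with a log2 difference of -0.18 ± 0.029 (SE), edgeR FDR 1.32e-05. Further along the cycle, succinyl-CoA ligase *Suclg1* (-0.15, FDR 0.000318) and fumarase *Fh1* (-0.17, FDR 5.8e-05) were lower too. So was the cytosolic malate dehydrogenase *Mdh1* (-0.20, FDR 7.64e-05), which serves the malate shuttle and is not an enzyme of the cycle in mitochondria. Citrate synthase *Cs* (-0.035, FDR 0.288), the 2-oxoglutarate dehydrogenase genes *Ogdh* (-0.024, FDR 0.585) and *Dlst* (-0.009, FDR 0.821), and the mitochondrial malate dehydrogenase *Mdh2* (-0.063, FDR 0.152) were not called, with SE between 0.028 and 0.037. The difference between *Mdh1* and *Mdh2* was itself not tested. *Mdh2* was called without EE replicate 2 (log2 difference -0.076, edgeR FDR 0.0441).

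The wider pathway, 63 further genes of which 57 passed the count filter, had 25 genes lower and 13 higher in dorsal DG, with a median log2 difference of -0.10. Over all genes tested, 29.3% were lower and 29.0% higher. The counts given below for NADH shuttle and malic enzyme genes and for regulators lie near these shares. The count of 13 fell to 8 without EE replicate 1 and to 8 without SH replicate 5. Of the 12 other glycolysis genes tested, 5 were lower, among them *Aldoc* (-0.48, FDR 2.6e-06), the aldolase of astrocytes and Purkinje cells, and *Pgk1* (-0.33, FDR 1.07e-07), phosphoglycerate kinase. The 3 that were higher were *Hkdc1* (0.29, FDR 0.0395), *Tigar* (0.13, FDR 0.0301), which lowers fructose 2,6-bisphosphate, and *Pfkfb4* (0.13, FDR 0.0486). Of these 3, none was called without EE replicate 1 or without SH replicate 5, and 1 without EE replicate 3, EE replicate 5, SH replicate 1 or SH replicate 2. *Gapdhs*, *Pgk2*, *Pklr*, *Ldhc* and *Pdha2* were among the genes that did not pass the filter. Of 7 other transport genes, 4 were lower and none higher. These included *Emb* (-0.81, FDR 3.51e-10), a chaperone that carries MCT proteins to the membrane, and *Slc2a12* (-0.43, FDR 0.000297), a glucose transporter. *Slc16a8*, which encodes MCT3, a transporter of choroid plexus and retinal epithelium, was at 0.226 to 1.53 CPM in ventral samples and 0 to 0.179 CPM in dorsal samples, the direction of the choroid plexus markers.

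Of 10 other citrate cycle genes, 7 were lower, including *Suclg2* (-0.35, FDR 0.000174), *Sdhd* (-0.28, FDR 5.73e-07) and *Idh2* (-0.26, FDR 0.000106), and 1 was higher, namely *Ogdhl* (0.24, FDR 2.51e-05), a 2-oxoglutarate dehydrogenase form found mainly in brain. Of 10 genes of NADH shuttles and malic enzymes, 3 were lower and 3 were higher. *Me1*, the cytosolic malic enzyme that makes NADPH, ranged from 33.7 to 40.6 CPM dorsally and from 56.1 to 63.8 CPM ventrally (log2 difference -0.67, edgeR FDR 2.05e-12). The other 2 that were lower were *Slc25a13* (-0.29, FDR 0.0336) and *Slc25a11* (-0.15, FDR 0.000196). The enzymes of the glycerol phosphate shuttle, *Gpd1* (0.33, FDR 2.34e-08) and *Gpd2* (0.12, FDR 0.00122), were higher in dorsal DG, as was *Me3* (0.22, FDR 5.08e-06). Of 11 regulators, 4 were lower, led by *Vhl* (-0.31, FDR 3.12e-05), *Ppargc1a* (-0.30, FDR 2.83e-06) and *Epas1* (-0.25, FDR 0.00122), and 3 were higher, namely *Egln3* (1.28, FDR 1.17e-08), *Arnt* (0.31, FDR 6.99e-05) and *Prkaa1* (0.13, FDR 0.02). *Egln3* encodes a prolyl hydroxylase that marks HIF proteins for degradation, and its 0.446 to 1.69 CPM in ventral and 2.43 to 3.90 CPM in dorsal samples did not overlap. *Hif1a* itself was not called (0.071, edgeR FDR 0.125).

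In the main edgeR fit, which held no block, no member passed the test between EE and SH in dorsal or in ventral DG (FDR under 0.05). None passed the test of whether the effect of EE differed between regions either. Over all genes tested, 0.716% were called in dorsal DG, 0.246% in ventral DG and 0.00587% in the difference of effects. At an unadjusted p under 0.05 there was 1 member in each of the 3 comparisons, beside 1502, 1292 and 553 of all 17040 genes. The median log2 difference (EE minus SH) of the members was 0.002 in dorsal and -0.002 in ventral DG, with 19 members above and 19 below 0 in each. The median size of the difference, without its sign, was 0.039 in dorsal and 0.030 in ventral DG for the members, and 0.069 and 0.068 for all genes. Of the 57 wider pathway genes, 0 were called in either region.

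The member with the smallest p in dorsal DG was *Ldha*. The dorsal SH samples held 178, 185, 199.5 and 202 CPM and the dorsal EE samples 204, 219, 211, 223 and 224 CPM. Every EE sample lay above every SH sample, which was so for no other member and for 2.21% of all genes. No member had every dorsal EE sample below every SH sample (1.78% of all genes), and in ventral DG no member was without overlap in either direction (1.28% of all genes above and 1.17% below). The log2 difference (EE minus SH) was 0.18 ± 0.051 (SE), edgeR FDR 0.149, with an unadjusted p of 0.0023. DESeq2 gave an adjusted p of 0.0397 for it, the only member it called. With a block for the replicate number, edgeR also called *Ldha* (FDR 0.0110), though the labels do not say that numbers pair EE with SH. On the TPM scale without rescaling the value was -0.081, where the median of all genes was -0.17. In ventral DG the SH samples held 222, 227, 243 and 239 CPM and the EE samples 231, 234, 249, 259.5 and 254 CPM, which overlapped, with a log2 difference of 0.077 ± 0.051 (SE), edgeR FDR 0.778. The difference between the 2 regions' effects was 0.10 ± 0.073 (SE), edgeR FDR 1. *Ldha* in the dorsal EE sample stayed below *Ldha* in the ventral EE sample of the same pool in 5 of 5 pools.

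The next smallest p values in dorsal DG were those of *Pdk4* (log2 difference -0.16 ± 0.096 (SE), edgeR FDR 0.697) and *Mpc2* (-0.11 ± 0.077 (SE), edgeR FDR 0.749). In ventral DG the smallest were *Fh1*, *Hk2* and *Pdk4*. For *Fh1* the ventral SH samples held 84.6, 83.7, 85.0 and 81.0 CPM and the EE samples 73.5, 80.0, 76.5, 81.2 and 77.1 CPM, and only the highest EE sample reached the lowest SH sample. Its log2 difference was -0.11 ± 0.043 (SE), edgeR FDR 0.533. *Hk2* had 0.13 ± 0.068 (SE), edgeR FDR 0.683 and *Pdk4* 0.17 ± 0.091 (SE), edgeR FDR 0.709. *Pdk4* thus had a negative value in dorsal and a positive value in ventral DG, neither of which passed the test. The test of the difference between these effects gave -0.33 ± 0.132 (SE), edgeR FDR 1, with an unadjusted p of 0.0221, and it was the member with the smallest p there, followed by *Fh1* (FDR 1) and *Hk2* (FDR 1).

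**Figure D5:**
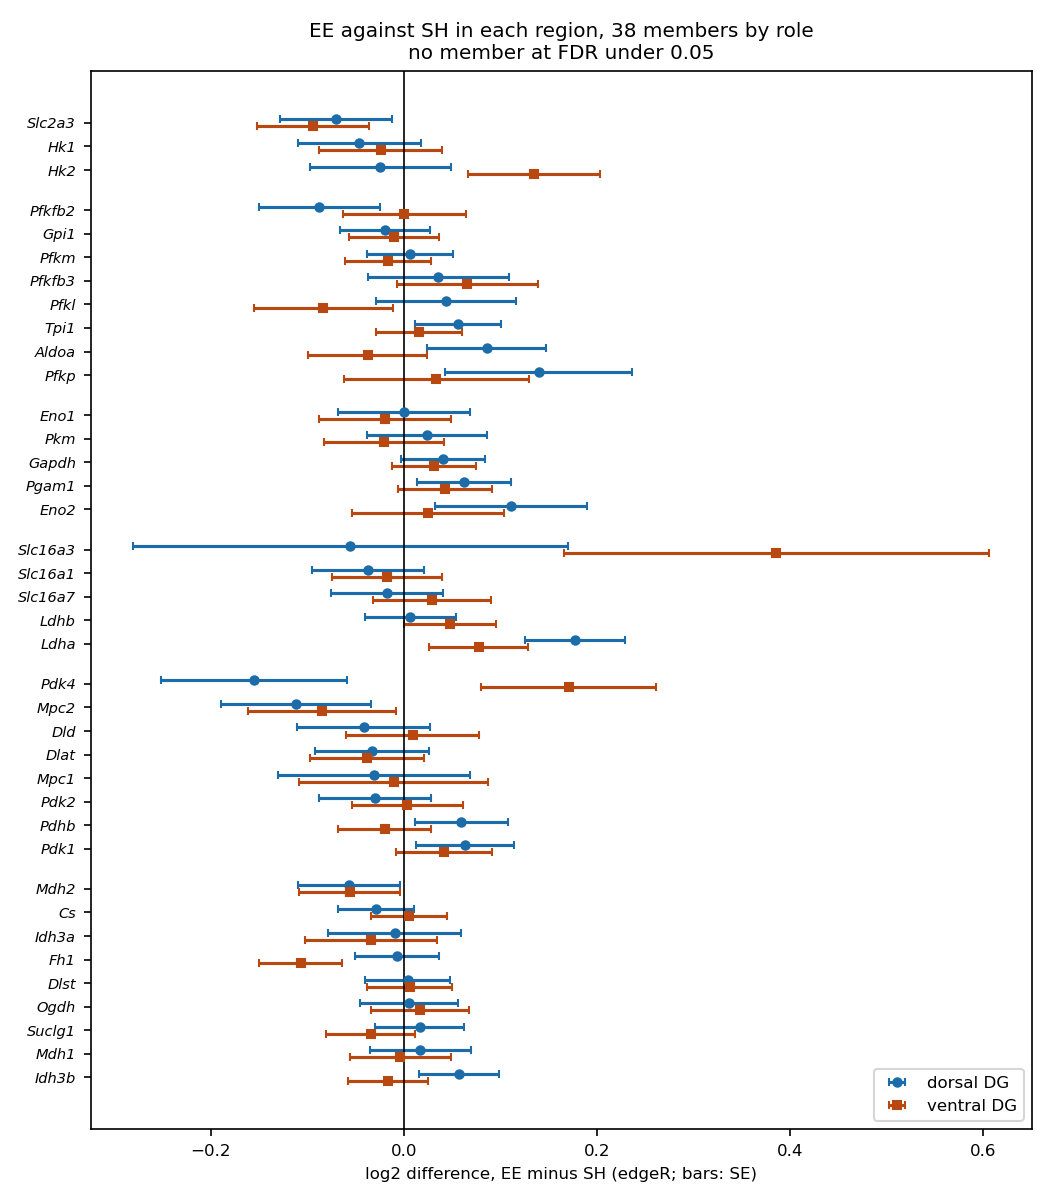
Log2 difference between EE and SH (x axis, points with SE bars) for the 38 members in dorsal (circles) and ventral DG (squares), grouped by role in the order of the text. Values scatter around 0, *Ldha* in dorsal DG (0.18) stands furthest from 0 in units of its SE, and the wide bars belong to *Slc16a3*.

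The members spanned a wide range of levels. Per length, by the median TPM over the 18 samples, the most abundant were *Aldoa* at 609, *Gapdh* at 482, *Pkm* at 214 and *Tpi1* at 188. The least abundant were *Pdk4* at 1.49, *Hk2* at 1.02 and *Slc16a3* at 0.325. Among the dehydrogenase kinases the order was *Pdk2* (12.8), *Pdk1* (6.11) and *Pdk4* (1.49), and among the phosphofructokinases *Pfkm* (48.5), *Pfkl* (31.0) and *Pfkp* (25.0). Of the monocarboxylate transporters, *Slc16a1* (6.07) was above *Slc16a7* (3.35) in every sample. All 4 of the most abundant members act between aldolase and pyruvate kinase. These TPM values are comparable between genes within a sample, and not between samples, because of the structural RNAs named above.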

How the data were processed

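RNA-Seq libraries (stranded total RNA, paired-end) of pooled dorsal and ventral DG were analysed, and the methylation samples of the series were not analysed here. Per the submitters' processing notes, reads were trimmed with Trim Galore 0.4.0, aligned to mm10 with STAR 2.5.1b and quantified with RSEM 1.2.30, and the study used Gencode vM7. The authors deposited, per sample, STAR fragment counts per gene as raw counts, of which the stranded column was used. The authors also deposited RSEM expected counts, which share out multi-mapped fragments, and RSEM TPM. Totals on genes ranged from 22919364 to 28301861 fragments, and 32.6% to 40.9% of all fragments listed with the counts were not assigned to a single gene. The study excluded an SH sample for *Xist* expression without giving its number. SH replicate 3, the pool with *Xist* counts, was left out here.

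Genes with counts above 10 in 2 or more samples were kept, as in the study, and counts were TMM-scaled and fitted with edgeR 4.0.16 (glmQLFit and glmQLFTest, R 4.3.3) over the 4 groups of region and housing, with FDR under 0.05 as threshold. The region contrast was the mean of the contrasts in SH and EE. TPM were used for ratios and levels within a sample, and for limma 3.58.1 on log2(TPM + 1). Alternatives were DESeq2 1.42.0, other size factors, other filters, unstranded and expected counts (rounded), replicate blocks, all 20 samples, and leaving out each replicate. Only the test between regions was checked on simulated counts, with independent samples and the same spread for every gene. That check covers neither the pairing within pools nor the housing tests. Python 3.11.15, numpy 2.4.6, pandas 2.3.3 and matplotlib 3.10.9 were used.

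Dorsal and ventral samples of a number share their animals, so they pair (mean correlation of deviations 0.083, lowest -0.084, highest 0.19). Each p-value of the main fit measures the spread between pools of mice within a group. That fit held no block, so its test between regions did not use this pairing and took all samples as independent. Calls with the pool as a block are given below. The members and lists were chosen with earlier results of these data known. All 38 members were accounted for, and values by group (each sample in groups of 4, the lowest, median and highest in groups of 5) were given for the 12 members with the largest called difference between regions, the 3 with the smallest p for each test of housing, and the isozyme pairs. Of each other list, up to 3 called genes in each direction were named, and some genes that this rule picks are not reported here. Promoter windows are from RefSeq (GRCm38.p6), gene positions from Gencode vM21 on the same assembly, and *Slc2a3*, *Idh3a* and *Slc16a7* had no window.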

Additional observations from a re-analysis of the deposited data

Results flagged for a closer look

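Of 152 sets of 4 or 5 samples (38 members in 4 groups), 6 held a sample that stood apart from the rest by Dixon's test, which chance gives in about 1 set in 20, or 7.6 sets here. All 6 were in dorsal DG, with 3 in EE replicate 2, 2 in SH replicate 2 and 1 in EE replicate 3. Dorsal SH replicate 2 (39.5%) and dorsal EE replicate 2 (38.6%) had the highest dorsal shares of fragments not assigned to a single gene. Whether this bears on the flags was not tested. *Pfkp*, the platelet-type phosphofructokinase, was at 135.7 CPM in dorsal SH replicate 2 against 160.3 to 164.0 CPM in the other dorsal SH samples. *Pfkfb3* was at 26.7 CPM in the same sample against 31.8 to 32.1 CPM. *Slc16a7* was at 24.7 CPM in dorsal EE replicate 2 against 28.5 to 29.9 CPM, which is still above the highest ventral value. *Mpc1* was at 67.4 CPM in that sample against 53.7 to 56.2 CPM. *Dld*, the dihydrolipoamide dehydrogenase, was at 89.3 CPM there against 112.7 to 121.8 CPM. *Dlst* was at 100.4 CPM in dorsal EE replicate 3 against 104.5 to 105.9 CPM.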

How the results depend on the processing

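Of the 24 members called between regions, all were called in 9 of 9 fits that left out 1 replicate, and the total called ranged from 24 to 26 (18 to 23 in SH and 18 to 23 in EE). With a fold change of at least 20%, 11 members were called between regions, 12 in SH and 12 in EE. On unscaled TPM, at FDR under 0.05 with no condition on fold change, 2, 1 and 0 members were called, and the log2 difference of *Gapdh* was 0.031, of *Pdhb* 8.39e-06, of *Idh3b* 0.0047 and of *Fh1* 0.044, each opposite in sign to the count fit; there the median of all genes was 0.090. With the pool of mice as a replicate block, 26 members were called (*Ldhb* and *Dld* in addition) and 24 in SH and 25 in EE. For EE against SH in dorsal DG, DESeq2 called 1 member and a block for the replicate number called 1, both *Ldha* (adjusted p 0.0397 and 0.0110). Its FDR in the fits without 1 replicate ranged from 0.116 to 0.459. No member was called in ventral DG or in the difference of effects in any setting run. Same-numbered EE and SH samples correlated at 0.0815 to 0.175 in their deviations (mean 0.126), beside a mean of 0.083 for dorsal and ventral samples of a pool. The labels do not say whether EE and SH samples of a number pair, so the main fit did not take the numbers as pairs in either region. Over all genes, EE calls depended more on the setting: 122 in dorsal and 42 in ventral DG became 188 and 85 with DESeq2, 243 and 105 with the number block, and 3 and 0 on unscaled TPM. Counts near the detection limit bound what can be said of *Slc16a3*.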

Other observations

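Outside the 38 members, *Slc2a1*, *Gpd1* and *Me3* of the wider pathway had small p values for housing that missed the FDR threshold, and they were chosen after their values were seen. *Slc2a1*, which encodes GLUT1, the glucose transporter of the blood-brain barrier and glia, averaged 60.8 ± 2.83 CPM in SH and 73.5 ± 7.92 CPM in EE samples of dorsal DG (SD, n = 4 and 5), a log2 difference of 0.27 ± 0.077 (SE, edgeR FDR 0.134). In ventral DG it was at 59.6 ± 3.52 CPM in SH and 74.8 ± 8.17 CPM in EE samples, a log2 difference of 0.33 ± 0.077 (edgeR FDR 0.0947). It did not pass the test between regions, with a log2 difference of -0.00014 ± 0.054 (edgeR FDR 0.999). *Gpd1*, the cytosolic enzyme of the glycerol phosphate shuttle, averaged 122 ± 5.97 CPM in SH and 139.8 ± 6.14 CPM in EE samples of dorsal DG, a log2 difference of 0.20 ± 0.048 (edgeR FDR 0.0527), and its ventral value was 0.095 ± 0.049 (edgeR FDR 0.682). *Me3*, a mitochondrial malic enzyme, averaged 45.3 ± 1.37 CPM in SH and 39.6 ± 1.70 CPM in EE samples of ventral DG, a log2 difference of -0.19 ± 0.047 (SE, edgeR FDR 0.111), and its dorsal value was -0.097 ± 0.046 (edgeR FDR 0.563).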
